A study of Mus musculus with 5 samples.

Results

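A set of 10 genes that mark lipid-associated macrophages of the Trem2 type were read out of bulk RNA sequencing of macrophages from the infarcted mouse heart: Trem2, Tyrobp, Gpnmb, Spp1, Lpl, Cd9, Cd63, Fabp5, Lgals3 and Apoe. They were taken by symbol, and each was found among the 21289 genes of the deposited count table. CD45+CD64+ cells, leukocytes that carry the Fc receptor CD64 of monocytes and macrophages, were sorted from infarcted hearts of male wild-type mice of the strain C57BL/6JGpt, 7 days after the infarction (MI). In the curcumol group (n = 3 samples) the mice with MI also received curcumol, a sesquiterpene of Curcuma plants, at 30 mg/kg by daily oral gavage for 7 days, and in the untreated group (n = 2 samples) mice had MI alone. Both groups carry the infarct, so no sample shows the uninjured heart. The labels state no vehicle, no age, and not whether a sample is 1 animal or a pool. The p-values below therefore reflect the scatter of the 5 samples alone, which may be technical.

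TREM2 is a lipid-sensing receptor of macrophages and microglia that signals through the adaptor DAP12, which Tyrobp encodes. Macrophages that take up lipid and dead cells, in fat, in atherosclerotic plaque and in injured tissue including the infarcted heart, are known to raise a set of genes with it for lipid transport (Apoe, Fabp5, Lpl), the endosome and lysosome (Cd63, Gpnmb), the cell surface (Cd9) and secreted proteins (Spp1, Lgals3). APOE is itself a ligand that TREM2 can bind.

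With curcumol, 4 of the 10 genes lay below the untreated libraries and 6 overlapped them. Of all 14508 tested genes, 14.9% were lower without overlap and 29.5% higher. Among 563 genes of like abundance, described below, 47.1% were lower without overlap and 9.06% higher, so the 4 are near that share. Spp1, Lgals3, Cd9 and Lpl were 1.72- to 1.85-fold lower, with every curcumol library below every untreated library. Trem2, Tyrobp, Apoe, Gpnmb, Cd63 and Fabp5 overlapped between the groups. By edgeR's quasi-likelihood test, none of the 10 had a Benjamini-Hochberg adjusted p under 0.05 over 14508 genes, where 0.138% of all genes passed lower and 0.0689% higher. At an unadjusted p under 0.05 there were 4 of the 10 lower and 0 higher, against 6.51% of all tested genes lower and 18.1% higher.

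Libraries held 39768705 to 41117439 counts with curcumol and 41663017 to 43315822 without. More genes had a count in the curcumol libraries (17078 to 18501) than in the untreated ones (12243 and 12915). All 12 markers of macrophages and of the sort gate had counts in both groups, and their summed level was 41286 to 47857 CPM with curcumol and 45937 to 46469 CPM without, where CPM is the count per 1000000 counts of a library whose size was adjusted by TMM (trimmed mean of M-values). Markers of other cells moved with treatment: the summed level of 12 neutrophil genes was 1742 to 3926 CPM with curcumol and 489 to 621 CPM without, with Ly6g and Camp at 0 counts in both untreated libraries. For 10 fibroblast genes it was 134 to 337 CPM with curcumol and 30.5 to 37.0 CPM without (Lum, Pdgfra and Col6a3 at 0 in untreated libraries). For 10 endothelial genes it was 74.3 to 132 CPM with curcumol and 30.8 to 33.6 CPM without (Cdh5, Tek, Tie1 and Egfl7 at 0). For 11 cardiomyocyte genes it was 98.2 to 116 CPM with curcumol and 19.4 to 59.5 CPM without (Myh7, Ryr2 and Ttn at 0), and for 8 B cell genes 92.5 to 139 CPM with curcumol and 52.8 to 68.7 CPM without (Pax5 and Ebf1 at 0). The summed level of T and NK cell markers overlapped between groups, and that of adipocyte markers was under 1 CPM in every library. The summed level of 8 mural cell genes also overlapped, at 20.5 to 35.5 CPM with curcumol and 15.2 to 34.3 CPM without, with most of it from Acta2 in the untreated libraries, where 6 of the 8 were at 0 counts. Of these, Rgs5, a pericyte gene, rose (edgeR adjusted p = 0.0464). It had 8.13, 14.3 and 10.4 CPM with curcumol and 0 counts without. That was 143-fold higher than a floor of 3 counts in each untreated library. The floor covers counting error only, as a gene can differ more between the untreated libraries (Cspg4 had 285 and 0 counts). Pdgfrb and Kcnj8 were higher without overlap and did not pass. In the other lists, Ngp and Camp (neutrophil) and Dcn and Lum (fibroblast) also rose. Their edgeR adjusted p was 0.0147, 0.0156, 0.0464 and 0.0464, where 0.0689% of all genes passed higher. The part of these other cells in the results below was not tested.

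The receptor and its adaptor overlapped between the groups. Trem2 (NCBI gene 83433) stood at 470, 459 and 859 CPM in the curcumol libraries, against 770 and 716 CPM in the untreated libraries. Curcumol replicates 1 and 2 were below both untreated libraries and replicate 3 was above both. The log2 fold change, curcumol minus untreated, was -0.32 ± 0.30 (SE; 95% interval -1.05 to 0.41; edgeR adjusted p = 0.594). Single libraries moved this value: it was -0.68 without curcumol replicate 3, -0.16 without replicate 1 and -0.16 without replicate 2 (edgeR adjusted p = 0.106, 0.885 and 0.904). With total counts in place of TMM it was -0.12.

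Tyrobp (NCBI gene 22177), the immune receptor adaptor that couples TREM2 to the kinase SYK, had 1625, 1499 and 2076 CPM with curcumol and 1729 and 1737 CPM without. The groups overlapped, and the group means were 1733 ± 304 CPM (SD, n = 3) and 1733 ± 5.49 CPM (SD, n = 2). Its log2 fold change was 0.00059 ± 0.19, with a 95% interval of -0.46 to 0.46 (edgeR adjusted p = 0.999). The interval therefore leaves room for a difference of about that size in either direction.

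**Figure D1:**
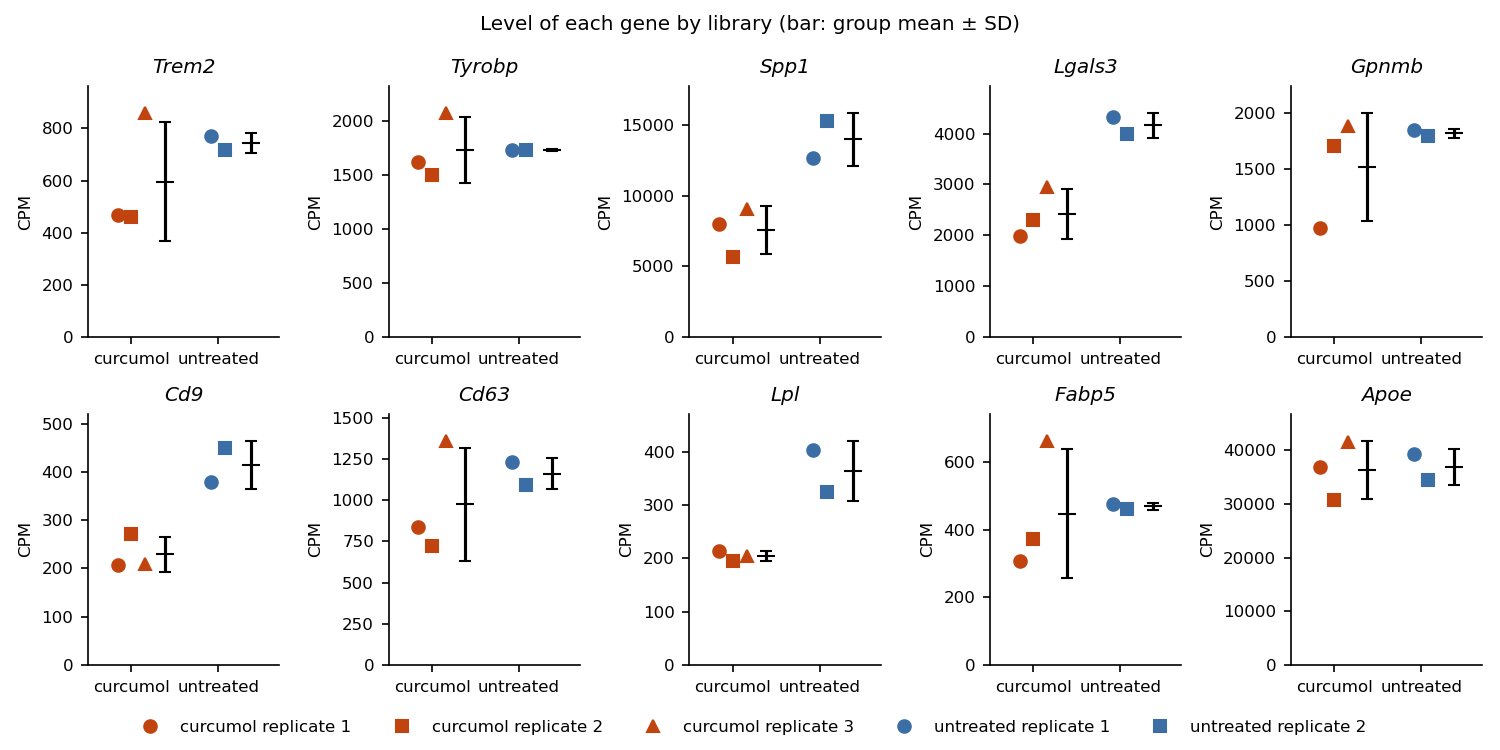
Level of each of the 10 genes in CPM (linear axes from 0) in the 3 curcumol libraries (orange, left) and the 2 untreated libraries (blue, right), with the group mean ± SD beside the points. Spp1, Lgals3, Cd9 and Lpl have all orange points below all blue points, and in Trem2, Tyrobp, Gpnmb, Cd63, Fabp5 and Apoe curcumol replicate 3 (triangle) lies above both untreated libraries.

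Among the secreted proteins, Spp1 and Lgals3 were lower with curcumol and Apoe overlapped. Spp1 (NCBI gene 20750) encodes osteopontin, a matrix protein and cytokine bound by integrins and CD44. It had 7976, 5690 and 9030 CPM with curcumol, against 12666 and 15310 CPM without. The highest curcumol library was below the lowest untreated library. Its log2 fold change of -0.89 ± 0.24 was the most negative of the 10 (95% interval -1.46 to -0.31; edgeR adjusted p = 0.0801).

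Lgals3 (NCBI gene 16854) encodes galectin-3, a sugar-binding lectin that macrophages secrete and that gathers on damaged lysosomes. Its levels were 1990, 2311 and 2946 CPM with curcumol and 4335 and 3992 CPM without. The groups did not overlap. The log2 fold change was -0.79 ± 0.21 (95% interval -1.29 to -0.29; edgeR adjusted p = 0.0787).

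Apoe (NCBI gene 11816), an apolipoprotein that carries lipid between cells, had more counts than any other gene in each of the 5 libraries. It stood at 36829, 30759 and 41559 CPM with curcumol and 39302 and 34503 CPM without. The groups overlapped, and the log2 fold change was -0.02 ± 0.20 (95% interval -0.50 to 0.46; edgeR adjusted p = 0.968). Scaling by total counts in place of TMM turned its sign to 0.17 and that of Fabp5 to 0.13. Under that scaling the median over all genes was 0.34, against 0.15 with TMM.

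Of the lipase and the fatty acid carrier, Lpl was lower without overlap and Fabp5 overlapped. Lpl (NCBI gene 16956), the lipase that frees fatty acids from lipoprotein triglycerides, had 214, 194 and 205 CPM with curcumol and 405 and 324 CPM without. The curcumol libraries lay within 1.10-fold of each other and below both untreated libraries. The log2 fold change was -0.83 ± 0.16 (95% interval -1.23 to -0.44; edgeR adjusted p = 0.0651). This was the smallest p of the 10, at rank 372 of the 14508 genes.

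Fabp5 (NCBI gene 16592) carries fatty acids in the cytosol. It stood at 307, 373 and 664 CPM with curcumol and 477 and 462 CPM without. Its curcumol libraries differed 2.16-fold from highest to lowest, the widest span of the 10 genes, and enclosed the untreated ones. The log2 fold change was -0.07 ± 0.33 (95% interval -0.87 to 0.73; edgeR adjusted p = 0.932).

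Of the membrane proteins, Cd9 was lower without overlap, and Cd63 and Gpnmb overlapped. Cd9 (NCBI gene 12527), a cell-surface tetraspanin, had 207, 271 and 209 CPM with curcumol and 379 and 450 CPM without. The groups did not overlap, with a log2 fold change of -0.86 ± 0.19 (95% interval -1.31 to -0.40; edgeR adjusted p = 0.0671). Cd63 (NCBI gene 12512), the tetraspanin of late endosomes, lysosomes and exosomes, had 839, 722 and 1363 CPM with curcumol and 1232 and 1094 CPM without. These overlapped because curcumol replicate 3 was above both untreated libraries (log2 fold change -0.25 ± 0.29; edgeR adjusted p = 0.661).

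Gpnmb (NCBI gene 93695), a glycoprotein of endosomes and lysosomes and a known target of MiT/TFE transcription factors, stood at 976, 1702 and 1884 CPM with curcumol and 1848 and 1791 CPM without. Curcumol replicates 1 and 2 were below both untreated libraries and replicate 3 was above both. The log2 fold change was -0.26 ± 0.29 (95% interval -0.95 to 0.44; edgeR adjusted p = 0.654). The RefSeq annotation names further copies of Cd9, Cd63 and Fabp5 (Cd9-ps, Cd63-ps and Fabp5l2). Their likeness was not measured here, and whether reads were shared with them in counting is not known. Other annotated genes also overlap Cd9 there.

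**Figure D2:**
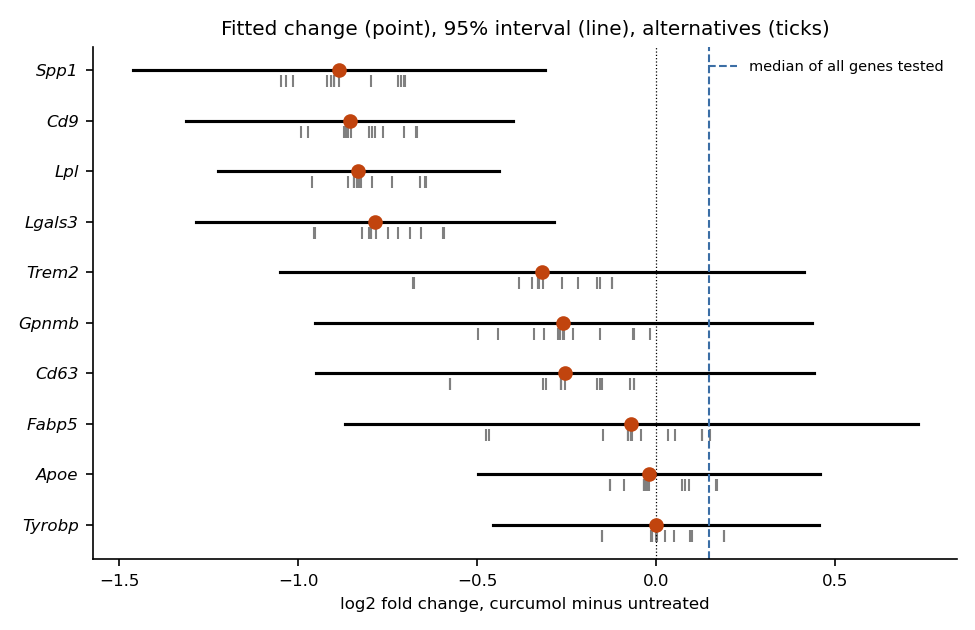
Log2 fold change of each gene, curcumol minus untreated, from edgeR (point) with its 95% interval (black line) and the values under the 14 alternative settings (grey ticks); the dashed line is the median of all genes tested, 0.15. The intervals of Spp1, Cd9, Lpl and Lgals3 lie below 0 and those of the other 6 genes span it.

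The separation of 4 genes was set against the background. Over all 14508 tested genes, 14.9% had curcumol libraries that were all below the untreated ones and 29.5% had them all above (44.4% in either direction). The 10 genes are abundant, each with an average log2 CPM above 8. Among the 563 genes at or above that level, a bound chosen after the values were seen, 47.1% were lower without overlap and 9.06% higher. In those genes 73.9% had a negative log2 fold change, as 9 of the 10 did, against 42.9% of all genes tested, and the median was -0.23. The median of the 10 was -0.29, and that of all genes tested was 0.15. At an unadjusted p under 0.05 29.1% of the 563 genes were lower and 6.04% higher. The count of 4 in 10 is thus near the share of equally abundant genes, and no difference of the 10 from such genes is shown.

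DESeq2 and limma-voom each called Spp1, Lpl, Cd9 and Lgals3 lower, and no other gene of the 10. DESeq2 called 4.63% of all genes lower and 11.5% higher, and limma-voom 1.73% lower and 9.72% higher. The DESeq2 adjusted p lay between 1.60e-05 for Lpl and 0.00246 for Lgals3. In edgeR, Lpl passed among genes of an average log2 CPM of at least 5 (adjusted p = 0.0463; 2.09% of those genes called lower and 1.97% higher) and without untreated replicate 2 (adjusted p = 0.0212; 4.44% of genes lower and 18.1% higher). Spp1 and Cd9 passed without untreated replicate 1 (adjusted p = 0.0390 and 0.0322; 3.96% of genes lower and 14.8% higher). Fits without an untreated replicate keep a single untreated library, which is assumed to vary like the curcumol libraries.

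Ratios within a library do not depend on how libraries are scaled. The ratio of Spp1 to Tyrobp counts was 4.91, 3.80 and 4.35 with curcumol and 7.33 and 8.82 without. The ratio of Lgals3 to Tyrobp was 1.22, 1.54 and 1.42 with curcumol and 2.51 and 2.30 without. Lpl to Tyrobp stood at 0.132, 0.130 and 0.0989 with curcumol and 0.234 and 0.187 without. For these genes and Cd9 the curcumol libraries were all below the untreated ones.

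The remaining ratios to Tyrobp overlapped between groups, as for Apoe at 22.7, 20.5 and 20.0 with curcumol and 22.7 and 19.9 without. For Trem2 the ratio was 0.289, 0.306 and 0.414 with curcumol and 0.445 and 0.412 without. In this ratio curcumol replicate 3 lay between the untreated libraries, while its Trem2 CPM was above both. Lgals3 was also lower relative to Trem2 itself, at 4.24, 5.04 and 3.43 with curcumol and 5.63 and 5.58 without, whereas Spp1 relative to Trem2 overlapped. These ratios were chosen after the values were seen and were not tested.

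**Figure D3:**
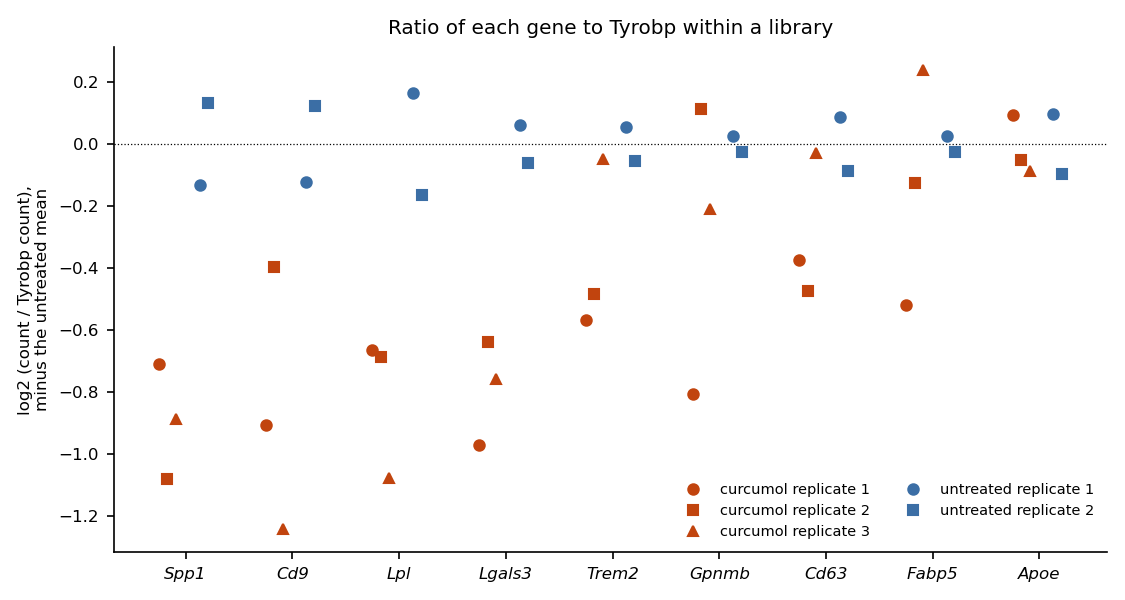
Log2 ratio of each gene's count to the Tyrobp count of the same library, minus the mean of the 2 untreated libraries (curcumol orange and left, untreated blue and right, a symbol per replicate). In Spp1, Cd9, Lpl and Lgals3 all 3 curcumol libraries lie below both untreated libraries, and the log2 group difference runs from -0.89 for Spp1 to -0.79 for Lgals3; the others overlap.

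The 10 genes together took 5.24%, 4.71% and 6.51% of all counts in the curcumol libraries and 5.75% and 5.67% in the untreated libraries. Wilson 95% intervals on these shares were within 0.00767 percentage points and cover counting error only. The groups overlapped, since Apoe alone took 3.75%, 3.29% and 4.45% with curcumol and 3.58% and 3.24% without. Without Apoe, the other 9 genes took 1.49%, 1.42% and 2.06% with curcumol and 2.17% and 2.43% without. That share was lower in every curcumol library, and Spp1 made up most of the difference at 0.813%, 0.609% and 0.967% with curcumol and 1.15% and 1.44% without. In bulk samples, fewer cells of a kind and less RNA per cell cannot be told apart.

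Among the curcumol libraries, replicate 3 tended to be the highest. Curcumol replicate 3 was the highest of the 3 for 8 of the 10 genes and the lowest for none. Replicate 2 was the lowest for 6 genes and replicate 1 for 4. Of the 10 genes, 9 had curcumol replicates 1 and 2 both below both untreated libraries (Apoe was the exception), while 6 had curcumol replicate 3 above both. The shares of all genes, or of equally abundant genes, with these patterns were not computed. The counts are therefore not shown to be particular to the 10. Replicate 3 also had the highest summed fibroblast level, 337 CPM against 134 and 160 CPM in the other 2 curcumol libraries, and the lowest summed macrophage level, 41286 CPM against 47857 and 43482 CPM. The part of these differences in the high values of replicate 3 was not tested.

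Per transcript length the order of the genes could be read. Levels were counts per kilobase of the longest coding GENCODE M21 transcript, scaled to a sum of 1000000 in each library. Apoe was highest at 50642 ± 6167 with curcumol (SD, n = 3) and 44073 ± 3252 without (SD, n = 2), followed by Spp1 at 9816 ± 1923 and 15640 ± 2372. Tyrobp stood at 5696 ± 916 with curcumol and 4885 ± 105 without, and Lgals3 at 3350 ± 690 and 4936 ± 197. With curcumol every library of Tyrobp was above every library of Lgals3, while in untreated libraries their ranges overlapped.

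Below these came Cd63 (1721 ± 577 with curcumol and 1764 ± 115 without) and Trem2 (1074 ± 399 and 1148 ± 37.8). Fabp5 stood at 892 ± 372 with curcumol and 801 ± 3.29 without, and Gpnmb at 813 ± 272 and 827 ± 3.31. With curcumol each of Cd63, Trem2, Fabp5 and Gpnmb overlapped its neighbour in that order, while Cd63 was above Fabp5 and Gpnmb without overlap. Cd9 (368 ± 76.8 and 568 ± 79.6) and Lpl (97.7 ± 0.735 and 149 ± 20.6) were the lowest of the 10 in both groups. The adaptor thus exceeded its receptor Trem2 in length-scaled level in every library.

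**Figure D4:**
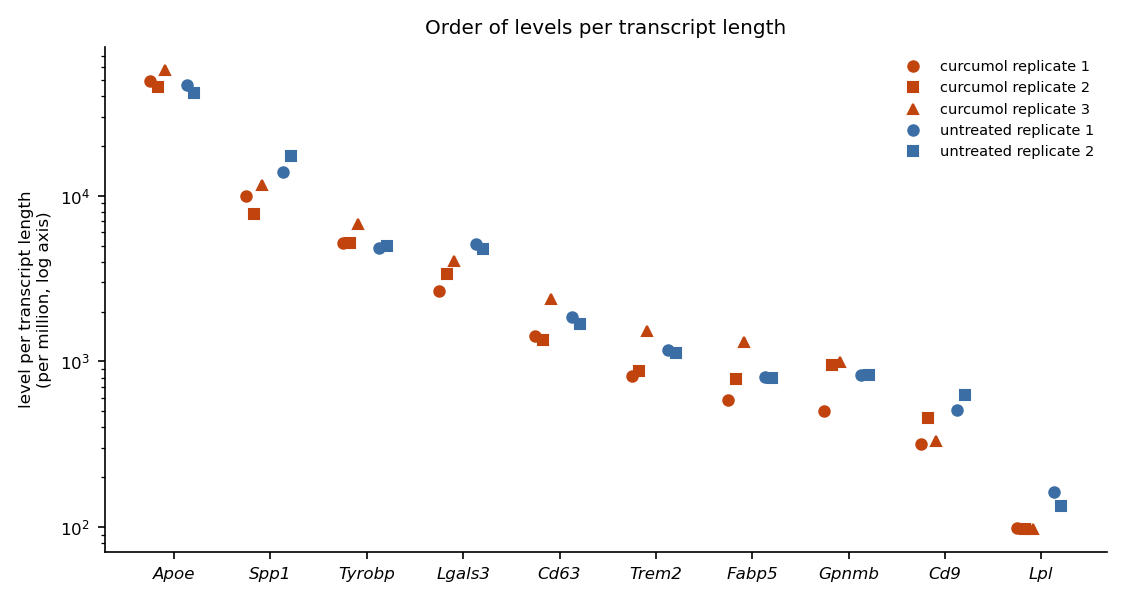
Level per transcript length (counts per kilobase scaled to a sum of 1000000 in each library, log axis) of the 10 genes in each curcumol library (orange, left) and untreated library (blue, right), ordered by the curcumol mean. Apoe is highest and Lpl lowest in all 5 libraries, and with curcumol each of Cd63, Trem2, Fabp5 and Gpnmb overlaps its neighbour in that order.

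Promoter sequence is shown for Spp1, Cd9 and Lgals3, whose libraries did not overlap, and for Trem2, whose libraries did. Each stretch is 120 bases just upstream of the most upstream annotated start in the RefSeq promoter window of GRCm38.p6, written 5′ to 3′ on the gene's strand. They lie at chr5:104434991-104435110 (plus strand) for Spp1, chr6:125494792-125494911 (minus) for Cd9, chr14:47373693-47373812 (plus) for Lgals3 and chr17:48346281-48346400 (plus) for Trem2. Capitals mark GAGGAAGT, letters bound by the macrophage factor PU.1.
Spp1: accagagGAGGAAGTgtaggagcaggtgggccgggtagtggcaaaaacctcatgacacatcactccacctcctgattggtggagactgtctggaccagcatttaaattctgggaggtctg
Cd9: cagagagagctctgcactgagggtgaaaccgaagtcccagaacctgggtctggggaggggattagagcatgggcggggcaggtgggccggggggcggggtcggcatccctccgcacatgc
Lgals3: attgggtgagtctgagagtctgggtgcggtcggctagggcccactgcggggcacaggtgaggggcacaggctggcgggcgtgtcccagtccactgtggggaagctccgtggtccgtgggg
Trem2: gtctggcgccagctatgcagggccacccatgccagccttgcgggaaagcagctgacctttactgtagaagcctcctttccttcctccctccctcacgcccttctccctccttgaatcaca

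The stretches differ in base composition. G and C made up 53.3% of the Spp1 stretch, with 1 CG pair, and 59.2% of the Trem2 stretch, with 3. They made up 67.5% for Cd9, with 6 CG pairs, and 69.2% for Lgals3, with 7, where the median of the 120 bases before the start in 32851 RefSeq windows was 54.2% and 3 pairs. No promoter window was available for Tyrobp, Lpl and Fabp5, so these were not searched. Searched on both strands over the whole 300-base windows of the other 7 of the 10 genes, GAGGAAGT was found for Spp1 only, at position -113 from its start, as in 3.2% of all windows. TATAAA was found for Spp1 and, with 2 matches that share bases, for Apoe (13.6% of windows). TGACTCA or TGAGTCA, the AP-1 letters, was found for Gpnmb (5.2%). Spp1 and Apoe each have windows at more than 1 start. The Spp1 matches lie in the window of the stretch shown, chr5:104434861-104435160. Those of Apoe lie in the window of its more downstream start, chr7:19698572-19698871, and none lies in its upstream window. CACGTG, the MiT/TFE letters (7.15%), and the spaced direct repeat of the sterol receptor LXR (0.0152%) were found for none of the 7. A match is a description of the sequence, and no match says only that the letters are not in this window.

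Genes around the 10 were followed in 9 lists with 148 tested genes, of which 1 fell and 0 rose over all genes (0.138% and 0.0689% of all genes). That gene was Bhlhe40, a transcription factor counted among the regulators of this state, at 68.7, 78.9 and 72.5 CPM with curcumol and 281 and 345 CPM without. All curcumol libraries were far below the untreated ones (log2 fold change -2.09 ± 0.17; edgeR adjusted p = 0.0183). The call ended without any single curcumol replicate (edgeR adjusted p = 0.0690 to 0.104). In its list of 16 regulators the median was -0.15, with 10 negative (42.9% of all genes). Maf, a factor of resident macrophages, had 48.3, 61.8 and 63.7 CPM with curcumol and 24.1 and 21.2 CPM without, which did not pass (edgeR adjusted p = 0.0637).

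Other genes of the lipid-associated state were mostly lower with curcumol, short of the threshold. Of 35 tested, 30 were negative (42.9% of all genes), 21 were lower without overlap and 1 higher (14.9% and 29.5% of all genes), and the median log2 fold change was -0.46. Of the 23 with an average log2 CPM of at least 8, 22 were negative and 18 lower without overlap, where 73.9% and 47.1% of the 563 such genes were. None passed over all genes. Capg, an actin-capping protein, stood at 846, 763 and 784 CPM with curcumol and 1437 and 1486 CPM without (edgeR adjusted p = 0.0637). Cd68, the lysosomal glycoprotein used as a macrophage marker, stood at 2061, 1732 and 2029 CPM with curcumol and 3670 and 3172 CPM without (edgeR adjusted p = 0.0659). Both had separate groups. Plin2, the coat protein of lipid droplets, named for that role after the values were seen, had 718, 1417 and 996 CPM with curcumol and 1868 and 1943 CPM without (edgeR adjusted p = 0.119).

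Genes that carry or end the TREM2 signal had a median of 0.31 over 23 tested genes, 10 of them negative (42.9% of all genes). Without overlap 10 were higher and 6 lower (29.5% and 14.9% of all genes). None passed. Lat2, an adaptor of myeloid receptors, had 207, 226 and 258 CPM with curcumol and 375 and 468 CPM without. Pik3cd, the leukocyte PI3-kinase subunit, had 103, 118 and 100 CPM with curcumol and 54.1 and 68.1 CPM without. These differed in opposite directions with no overlap (edgeR adjusted p = 0.0659 and 0.0703). Adam10, a protease that sheds TREM2, named for that role after the values were seen, stood at 46.6, 145 and 54.1 CPM with curcumol and 22.7 and 18.3 CPM without. Its libraries did not overlap, and it did not pass (log2 fold change 1.99 ± 0.50; edgeR adjusted p = 0.0816).

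Receptors of the TREM family and others coupled to DAP12 had a median of -0.19 over 13 genes, 8 of them negative (42.9% of all genes). Treml4, a TREM-like receptor, had 13.7, 11.2 and 9.04 CPM with curcumol and 32.6 and 25.4 CPM without (edgeR adjusted p = 0.0696). Siglech, a receptor of plasmacytoid dendritic cells, stood at 4.13, 4.77 and 3.43 CPM with curcumol and at 0 counts in both untreated libraries. Set against a floor of 3 counts in each untreated library, which covers counting error only, it was 53.8-fold higher. It did not pass (edgeR adjusted p = 0.0637). The summed level of the 8 dendritic cell markers, which include Siglech, overlapped at 48.3 to 80.7 CPM with curcumol and 47.6 to 84.3 CPM without.

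Lists of APOE and LPL partners had positive medians, as did all genes tested (0.15). Apolipoproteins, their receptors and cholesterol exporters had a median of 0.38 over 16 genes, 7 of them negative (42.9% of all genes). Nr1h2, the sterol receptor LXR beta, stood at 109, 97.9 and 107 CPM with curcumol and 167 and 168 CPM without. Its libraries did not overlap, and it did not pass (edgeR adjusted p = 0.0665). Genes of LPL processing and lipid hydrolysis had a median of 0.34 over 11 genes, 2 of them negative (42.9% of all genes). Furin, a protease that can cleave LPL, had 59.6, 138 and 79.1 CPM with curcumol and 47.9 and 53.5 CPM without (edgeR adjusted p = 0.210). Gpihbp1, the endothelial anchor of LPL, had 3.37, 7.70 and 7.38 CPM with curcumol and 0.760 and 0 CPM without (edgeR adjusted p = 0.213), beside the higher endothelial markers given above.

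Osteopontin receptors were near 0, with a median of 0.0039 over 9 genes, 4 of them negative (42.9% of all genes). Itga4, an integrin subunit of leukocytes, had 31.5, 28.2 and 35.7 CPM with curcumol and 23.4 and 13.0 CPM without (edgeR adjusted p = 0.192). Itga8 was at low and scattered levels of 0.406, 1.34 and 0.188 CPM with curcumol and 0 and 5.86 CPM without. Itga4 was higher without overlap, Itga8 overlapped, and none of the 9 passed.

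Other tetraspanins had a median of 0.09 over 16 genes, 8 of them negative (42.9% of all genes). Tspan33 and Tspan15 had no counts in the untreated libraries. Tspan33 had 2.68, 4.47 and 2.04 CPM with curcumol, which was 40.1-fold higher than the same floor. Tspan15 had 1.10, 0.727 and 0.963 CPM, 12.2-fold higher than that floor. Neither passed (edgeR adjusted p = 0.0644 and 0.0664). Relatives of Fabp5 and Lgals3 had a median of -0.33 over 9 genes, 7 of them negative (42.9% of all genes). Fabp7, a fatty acid binding protein best known from the brain, had 8.13, 6.04 and 5.57 CPM with curcumol and 19.3 and 17.1 CPM without (edgeR adjusted p = 0.0768). Lgals9, galectin-9, had 455, 360 and 341 CPM with curcumol and 575 and 538 CPM without (edgeR adjusted p = 0.127).

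**Figure D5:**
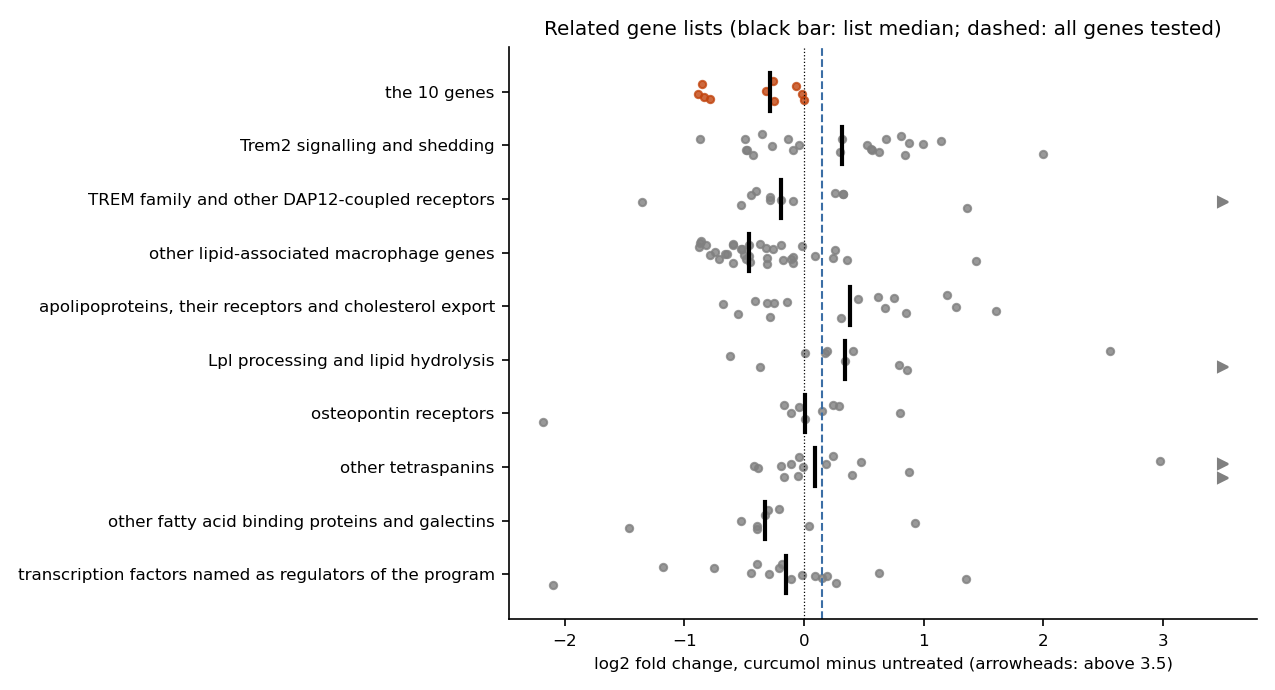
Log2 fold change, curcumol minus untreated, of the 10 genes (orange) and of each tested gene in the 9 related lists (grey; arrowheads lie beyond the axis at 3.5), with list medians as black bars and the median of all genes tested, 0.15, as a dashed line. The medians run from -0.46 in the other lipid-associated macrophage genes to 0.38 in the apolipoproteins, their receptors and cholesterol export.

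Profiles across the 5 libraries were compared for Trem2, Apoe and Spp1. Likeness was the root mean square difference of log2 CPM after centring each gene over the 5 libraries, among genes of an average log2 CPM of at least 5. Within the set, Cd63 was nearest to Trem2 at 0.08, Tyrobp was nearest to Apoe at 0.09, and Lgals3 was nearest to Spp1 at 0.26. Outside it, Pkib, an inhibitor of protein kinase A (0.08), Slc26a11, an anion transporter (0.09), and Mt1, a metallothionein (0.13), were nearest to Trem2. Ndufb11, a subunit of respiratory complex I, Fam89b and Dctn2, a dynactin subunit, were nearest to Apoe (0.030, 0.033 and 0.035). H3f3b, a gene of histone H3.3 (0.035), Cyb561d2 (0.08) and Cd24a, a surface glycoprotein (0.11), were nearest to Spp1. With 5 libraries such likeness is a description of these samples.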

How the data were processed

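The authors deposited whole-number counts per gene without normalization. Named in the submitters' processing notes are fastp, HISAT2, HTSeq and Bowtie2, with no role or version. Genome build and annotation: not given in the sources used here. Per the labels' protocols the library kit was VAHTS Universal V6, while the design text of the series gives TruSeq Stranded, and whether counting used strand is unknown. Columns were tied to samples by title.

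Both groups, 3 and 2 libraries, were fitted by edgeR 4.0.16 (R 4.3.3, TMM, filterByExpr with a minimum count of 10, quasi-likelihood test, two-sided, Benjamini-Hochberg over 14508 genes, threshold 0.05, 3 residual degrees of freedom). The fit was also run on simulated data with larger changes than those of the 10 genes. That run does not show its power for changes of their size. SEs came from the fitted weights and the quasi-dispersion. Alternatives used DESeq2 1.42.0, limma 3.58.1 (voom), other scalings and filters, a replicate block and each library left out. Transcript lengths were matched for 82.2% of genes. Every pair of libraries differed beyond sampling noise (chi-square per gene 92.1 to 349.95).

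The genes and lists were chosen with earlier results of these data known. Genes named are all 10, each list's genes past the threshold and its 2 of smallest p, and the 3 nearest profiles to Trem2, Apoe and Spp1; exceptions are stated, and 1 gene that the rule names is not reported here.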

Additional observations from a re-analysis of the deposited data

How the results depend on the processing

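The number of genes past the threshold, 30 in edgeR, was 2346 with DESeq2, 1661 with limma-voom, 10 with total counts, 10 with total counts less those of the 10 genes, 416 without a filter, 98 with a CPM of at least 1 in 2 libraries and 179 among abundant genes. It was 1, 0 and 19 without curcumol replicates 1, 2 and 3, and 2950 and 3531 without untreated replicates 1 and 2; beside the 0, in edgeR, 2383 genes had an unadjusted p under 0.05. Of the 10 genes 0 passed in edgeR (4 at an unadjusted p under 0.05), 4 with DESeq2, 4 with limma-voom, 1 among abundant genes and 0 to 2 with a library left out. Of the 148 genes in related lists 1 passed (0.207% of all genes), against 41 with DESeq2 (16.2%), 22 with limma-voom (11.4%), 7 without a filter (2.03%), 6 of 99 among abundant genes (4.06%) and 0 to 23 with a library left out (0 to 22.5%). The causes of these differences were not tested. The median of the 10 was -0.29, ranged from -0.63 to -0.16 with a library left out and was -0.63 with the replicate block, a fit to which curcumol replicate 3, having no partner, adds nothing. It was -0.093 with total counts and -0.094 with those less the 10 genes. Deviations of same-numbered libraries correlated at 0.04 and -0.0076. The deviations of the 2 untreated libraries mirror each other, so these values are not separate checks. Whether same-numbered samples share a batch was not tested. The block gave 45 calls and 0 of the 10.

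Spp1, Lgals3, Cd9, Lpl, Trem2, Cd63 and Gpnmb kept a negative sign in all 14 alternatives, but not their size: with a library left out, Trem2 ranged from -0.68 (without curcumol replicate 3) to -0.16, Cd63 from -0.58 (without curcumol 3) to -0.074 (without curcumol 2) and Gpnmb from -0.44 (without curcumol 3) to -0.016 (without curcumol 1). With total counts these 3 were -0.12, -0.062 and -0.062. Over the 14 alternatives Spp1 ranged from -1.05 to -0.70 and Lpl from -0.96 to -0.64. Cd9 ranged from -0.99 to -0.67 and Lgals3 from -0.96 to -0.59. Tyrobp was -0.011 with DESeq2 and with RLE factors, -0.012 with the CPM filter, -0.014 with limma-voom, -0.15 with the replicate block and -0.15 to 0.10 with a library left out. Fabp5 was 0.13 with total counts, 0.13 without the 10 genes in them, 0.033 among abundant genes and -0.47 to 0.15 with a library left out. Apoe was 0.17, 0.17, 0.073 and -0.13 to 0.091 in the same settings. Itga8 was 0.83 with limma-voom, 1.28 with the block and -3.29 to 7.77 with a library left out. The lowest count of the 10 genes in any library was 8558, so the scatter between libraries, not counting error, sets their intervals.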
